A study of Rattus norvegicus with 2 samples.

Results

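Transcripts of TGF beta, activin and BMP signalling were compared between endocardial and aortic endothelial cells of the rat. The set held 10 genes chosen by symbol: 5 ligands (Tgfb1, Tgfb2, Tgfb3, Inhba and Bmp6), 4 receptors (Tgfbr1, Tgfbr2, Tgfbr3 and Acvrl1) and 1 antagonist (Fst). Of these, 9 had probe sets annotated with that symbol alone, 14 probe sets in all, out of 4736 genes on the array. Tgfbr2 had none and was not analysed here. The endocardial group was endothelium of the heart chambers and the aortic group endothelium of the aorta. Both were obtained from the same 2 rats, pooled by origin and grown for 2 passages under culture conditions and confluence kept as alike as possible. Each pool's total RNA was hybridised to its own Affymetrix rat U34A array. With 1 array per group no difference has a replicate check, and no p-value is given. Both groups were untreated as far as the labels say, and the strain, sex and age of the rats are not given in the sources used here.

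TGF beta ligands are secreted as latent precursors and, once released, signal through a type II receptor that phosphorylates a type I receptor, which in turn activates SMAD transcription factors. Activins and BMPs are ligands of the same superfamily that use related receptor pairs, and follistatin captures activins, and more weakly some BMPs, outside the cell. In endothelium, TGF beta can signal through Tgfbr1 (ALK5) or through Acvrl1 (ALK1), and in the developing heart TGF beta and BMP ligands take part in the transformation of endocardial cells into the mesenchyme of the valve cushions.

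Values are intensities in the arbitrary units of the array, scaled to a common trimmed mean. A floor of 635.4, the median scaled intensity, replaced any lower value when ratios were formed. A ratio with 1 array under the floor is therefore a bound ("at least"). Ratios are endocardial over aortic, and a gene value is the median over its probe sets. A difference of 2-fold, a log2 ratio of 1, was used as a fixed size and not as a test. For scale, the highest of 38 background control probe sets, called the control ceiling here, stood at 1742.4, and log2 ratios of probe sets for the same gene had an SD of 0.39 (625 genes and 1432 probe sets). The 9 hybridisation control probe sets, for bacterial and phage transcripts that are spiked into such samples, had log2 ratios between -0.25 and 0.36. These figures describe the arrays and hold no variation between cultures or animals.

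Markers of cell types were read on the same arrays. As a yardstick, 5.93% of all measured genes passed 2-fold in favour of the endocardial array and 4.16% in favour of the aortic array. With the floor at the control ceiling these shares were 3.99% and 2.36%. Of 9 pan-endothelial markers on the array, Vwf, Pecam1, Kdr and Icam2 did not reach the floor on either array. Of the other 5, Ets1 was higher past 2-fold and Ace lower, and with the floor at the control ceiling 0 of 4 passed 2-fold. For Thbd, 1 of 2 probe sets exceeded the control ceiling on both arrays, with 2848.2 on the endocardial and 3920.6 on the aortic array. The other Thbd probe set did not reach the floor on either array. That the cultures were endothelial is taken from the labels. Past 2-fold, 7 of 11 measured macrophage and leukocyte markers were higher and 0 lower, among them Lyz2, with 33619.5 on the endocardial and 287.8 on the aortic array. Lyz2 ranked highest, and Mmp12 came next with 6087.5 on the endocardial and 267.8 on the aortic array. Lowest of the 11 were RT1-Ba, at a log2 ratio of -0.94 (3 probe sets, from -1.27 to 1.75), and Ptprc at -0.09. With the floor at the control ceiling 2 of 9 were higher and 0 lower, and the median log2 ratio was 0.38, beside 1.28 with the floor used here. Summed over the 23 probe sets of that list, with values below 0 counted as 0, the intensity was 74416.6 on the endocardial and 18871.9 on the aortic array, and Csf1r and Itgam did not reach the floor on either. Of 12 fibroblast markers 1 was higher and 2 lower (summed intensity 796278.2 on the endocardial and 1022307.5 on the aortic array). Of 9 smooth muscle markers 2 were higher and 1 lower (430948.3 on the endocardial and 320533.4 on the aortic array). Of 6 cardiomyocyte markers 0 were higher and 1 lower, and of 2 mesothelial and epicardial markers 1 was higher and 0 lower. The part of these cell types in the values below was not tested. The arrays were scanned separately and used different fluidics modules, which cannot be told apart from cell origin.

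The endocardial array was brighter for 2 of the 3 TGF beta isoforms and for the activin antagonist follistatin by at least 2-fold. Tgfb2 was at least 6.66-fold higher, Tgfb3 2.57-fold and Fst 3.30-fold. The aortic values of Tgfb2 and of 1 of the 2 probe sets of Fst were under the control ceiling, and with the floor raised to it the differences were at least 2.43-fold for Tgfb2 and at least 2.58-fold for Fst. Tgfb1 was 1.88-fold higher, also with an aortic value under the control ceiling. The activin subunit gene Inhba and the type I receptor gene Acvrl1 went the other way by less than 2-fold, with log2 ratios of -0.60 and -0.73. Of the 9 measured genes, 3 passed 2-fold in favour of the endocardial array, as did 5.93% of all 2935 measured genes. In the lower direction 0 of the 9 passed 2-fold, beside 4.16% of all measured genes. The median log2 ratio of the 9 was 0.43, beside -0.02 over all measured genes. The members and lists were chosen with earlier results of these data known. These counts and medians, and those given below, therefore describe the set and are not a test of it. Because each array reads a whole culture, more RNA per cell and more cells of a type that makes the RNA cannot be told apart.

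**Figure D1:**
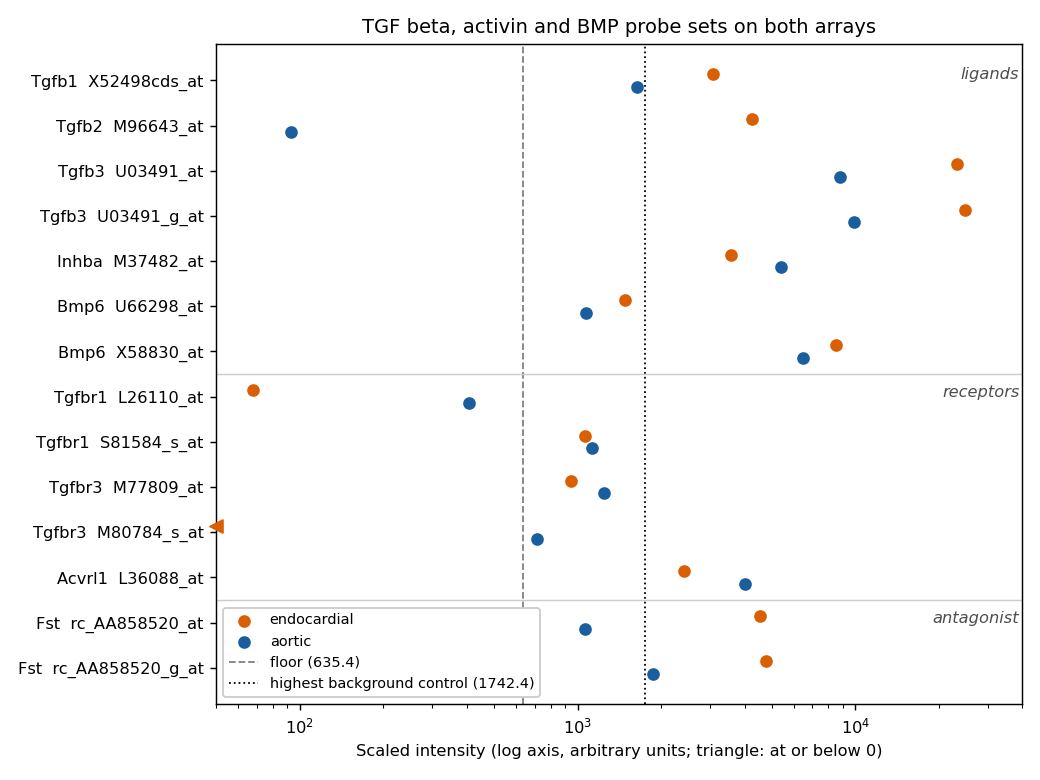
Scaled intensity (log axis, arbitrary units) of the 14 probe sets on the endocardial array (orange, upper point of each row) and the aortic array (blue, lower point), with 1 array per group and no error bars. The dashed line is the floor of 635.4, the dotted line the control ceiling of 1742.4, and the triangle marks a value below 0. Tgfb2, Tgfb3 and Fst lie to the right on the endocardial array, and 4 of the 5 receptor probe sets have both points under the dotted line.

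The promoter windows of the TGF beta isoforms are shown because Tgfb2 and Tgfb3 were both past 2-fold in the same direction while Tgfb1 was not. Each runs from 250 bases before to 50 bases after the transcript start used for that gene on assembly GRCr8, 5′ to 3′ on its strand. The windows are chr13:100792636-100792935 (minus strand) for Tgfb2, chr6:111456897-111457196 (minus strand) for Tgfb3 and chr1:90324062-90324361 (plus strand) for Tgfb1. The Tgfb2 and Tgfb3 windows lie wholly inside the RefSeq gene span, whose 5′ ends are at 100793227 and 111457646. For these genes the start used is downstream of the 5′ end. For Tgfb1 it is the 5′ end, at 90324312, so the windows are not alike in position. Capitals mark matches to any of 7 motifs, searched on both strands.
Tgfb2: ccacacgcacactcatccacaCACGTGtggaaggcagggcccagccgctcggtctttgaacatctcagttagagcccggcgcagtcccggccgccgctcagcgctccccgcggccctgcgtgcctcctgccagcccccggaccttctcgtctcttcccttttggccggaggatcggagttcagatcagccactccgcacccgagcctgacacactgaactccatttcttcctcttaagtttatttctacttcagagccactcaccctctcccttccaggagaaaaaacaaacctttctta
Tgfb3: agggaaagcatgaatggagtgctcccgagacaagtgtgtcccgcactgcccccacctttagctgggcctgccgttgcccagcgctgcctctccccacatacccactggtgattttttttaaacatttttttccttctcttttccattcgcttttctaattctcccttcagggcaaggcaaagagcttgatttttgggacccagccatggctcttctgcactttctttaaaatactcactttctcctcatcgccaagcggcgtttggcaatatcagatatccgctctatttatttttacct
Tgfb1: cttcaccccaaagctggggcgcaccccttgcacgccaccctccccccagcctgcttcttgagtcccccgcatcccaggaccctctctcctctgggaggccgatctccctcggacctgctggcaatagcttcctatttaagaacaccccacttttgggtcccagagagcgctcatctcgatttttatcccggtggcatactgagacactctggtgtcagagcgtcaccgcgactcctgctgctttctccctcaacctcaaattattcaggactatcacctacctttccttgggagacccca
The motifs were the TATA box TATAAA, the E-box CACGTG, the cAMP response element TGACGTCA, the AP-1 site TGANTCA, the GC box GGGCGG, the CCAAT box (CCAAT) and the SMAD-binding CAGACA. Tgfb2 held 1 match, an E-box that starts 229 bases before the transcript start used. An E-box is present in 6.42% of 33469 rat promoter windows of this length. The windows of Tgfb3 and Tgfb1 held none of these letter strings. The GC content was 59.0% for Tgfb2, 47.7% for Tgfb3 and 57.7% for Tgfb1, and the median of all windows was 51.7%. These matches describe the sequence and were not set against the intensities.

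Among the ligands, Tgfb2 encodes the isoform that mice need for normal heart outflow tract and valve formation. Its single probe set, M96643_at, had an intensity of 4231.3 on the endocardial and 92.7 on the aortic array. The aortic value was thus under the floor, and the endocardial value above the control ceiling. The log2 ratio was at least 2.74, and against the control ceiling the difference was at least 2.43-fold. By its bound Tgfb2 had rank 9 from the highest of 2935 genes, a place that is not exact because genes near it are also bounds. With the floor raised to the 75th percentile of intensities, 2576.1, the bound was under 2-fold, a log2 ratio of at least 0.72.

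Tgfb3, an isoform required in mice for closure of the palate, was measured by a pair of probe sets that share a source sequence and so are not independent readings. U03491_at had 23218.3 on the endocardial and 8790.4 on the aortic array. U03491_g_at had 24756.9 on the endocardial and 9909.6 on the aortic array. All 4 values were above the control ceiling, and the log2 ratios of 1.40 and 1.32 were closer to each other than the SD among probe sets of a gene. Tgfb3 had rank 92 from the highest of 2935 genes, and its gene log2 ratio lay between 1.32 and 1.42 under every alternative of processing that was run.

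Tgfb1, the most widely studied isoform and a regulator of matrix production and inflammation, was read by X52498cds_at. It had 3072.1 on the endocardial and 1631.9 on the aortic array, a log2 ratio of 0.91. The endocardial value was above the control ceiling and the aortic value just under it. Set against that control, the difference was at least 1.76-fold. The difference in intensity, 1440.1, exceeded the largest change of any background control between the arrays, 1168.2. This held for 9 of the 14 member probe sets, and the share over all probe sets was not computed. The controls are dim, so their changes do not bound the noise of brighter probe sets.

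Inhba encodes the beta A subunit, which pairs with itself to form activin A or with the alpha subunit to form inhibin A. M37482_at had 3556.0 on the endocardial and 5385.6 on the aortic array, a log2 ratio of -0.60. Both values were above the control ceiling, and Inhba was the only one of the 5 ligand genes with the lower value on the endocardial array. Among the ligands outside the set, the alpha subunit gene Inha had a log2 ratio of 0.90 over 2 probe sets, which were both under the control ceiling on the aortic array. The beta B subunit gene Inhbb had a log2 ratio of -0.17.

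Bmp6 encodes a BMP that liver endothelium releases in iron sensing and that the developing heart expresses. X58830_at had 8496.0 on the endocardial and 6485.3 on the aortic array. U66298_at had 1486.3 on the endocardial and 1072.4 on the aortic array, both under the control ceiling. The probe sets come from different source sequences, and their log2 ratios of 0.39 and 0.47 had the same sign and nearly the same size. Each ratio was about as large as the SD among probe sets of a gene, so a difference of this size is within what probe sets of 1 gene differ by. Of the other BMP and growth differentiation factor genes listed, Gdf10 had 1905.3 on the endocardial and 2112.6 on the aortic array, a log2 ratio of -0.15. Bmp2, Bmp3, Bmp4, Bmp7, Gdf11, Gdf15 and Mstn did not reach the floor on either array.

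**Figure D2:**
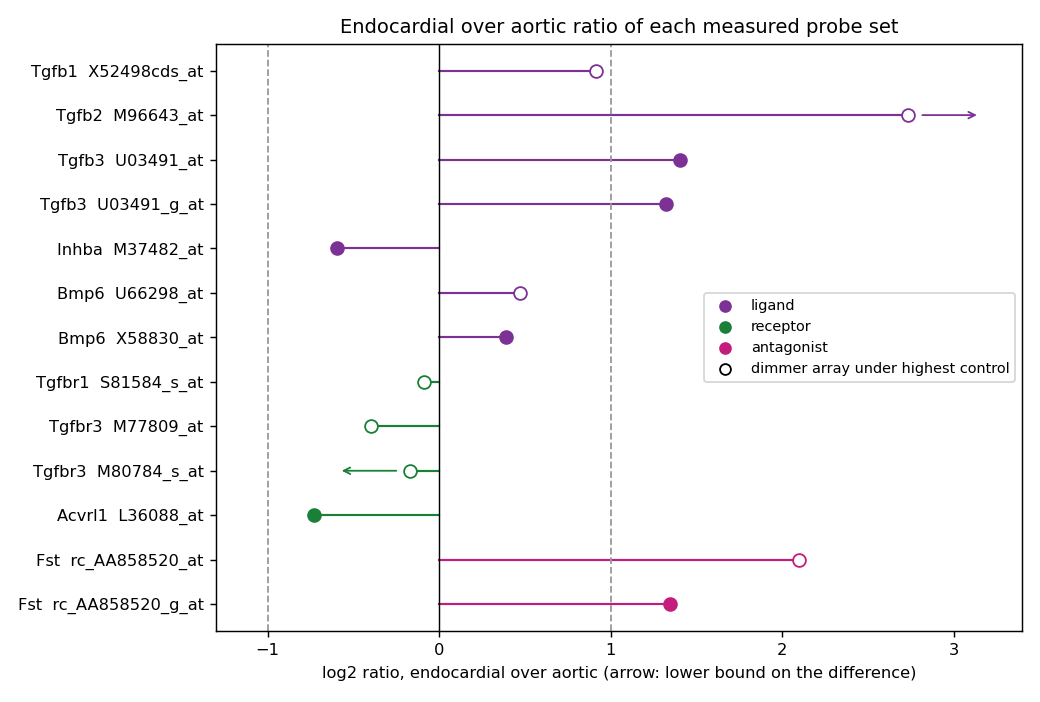
Log2 ratio, endocardial over aortic, of the 13 measured probe sets, coloured by role. Open points have the dimmer array under the control ceiling (1742.4), arrows mark bounds, dashed lines mark 2-fold, and no error bars are drawn because each group had 1 array. Probe sets of Tgfb2, Tgfb3 and Fst pass 2-fold higher, and no probe set passes 2-fold lower.

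The receptors gave little signal. Of their 5 probe sets only that of Acvrl1 exceeded the control ceiling, on both arrays. Acvrl1 (ALK1) is a type I receptor found mainly on endothelium, which binds BMP9 and BMP10 and also takes part in TGF beta signalling. L36088_at had 2424.1 on the endocardial and 4018.7 on the aortic array, a log2 ratio of -0.73, or 1.66-fold lower. The difference in intensity, -1594.5, was larger in size than that of any background control (1168.2). The controls are dimmer than both Acvrl1 values, so their changes do not bound the noise of this probe set. Acvrl1 had rank 245 from the lowest of 2935 genes.

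Tgfbr1 (ALK5) is the main type I receptor for TGF beta. S81584_s_at had 1061.0 on the endocardial and 1129.5 on the aortic array, a log2 ratio of -0.09. L26110_at had 67.7 on the endocardial and 407.7 on the aortic array, both under the floor, so no ratio is given for it. Tgfbr3 (betaglycan) is a co-receptor that presents TGF beta 2 to the signalling receptors. M77809_at had 947.2 on the endocardial and 1250.0 on the aortic array, a log2 ratio of -0.40. M80784_s_at had -9.9 on the endocardial and 714.7 on the aortic array, at least 1.12-fold lower. All 8 of these values were within the range of the background controls, so the ratios of Tgfbr1 and Tgfbr3 show neither equal nor different expression.

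Follistatin, the product of Fst, binds activin almost irreversibly and blocks its access to receptors. rc_AA858520_at had 4548.8 on the endocardial and 1065.1 on the aortic array, a log2 ratio of 2.09. rc_AA858520_g_at had 4752.3 on the endocardial and 1868.2 on the aortic array, a log2 ratio of 1.35. The probe sets share a source sequence, agreed closely on the endocardial array and differed on the aortic array, where the first was under the control ceiling. Against that control the first was at least 2.61-fold higher, and the second, above it on both arrays, was 2.54-fold higher. With the floor at the 75th percentile (2576.1) its log2 ratio was at least 0.85, under 2-fold.

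**Figure D3:**
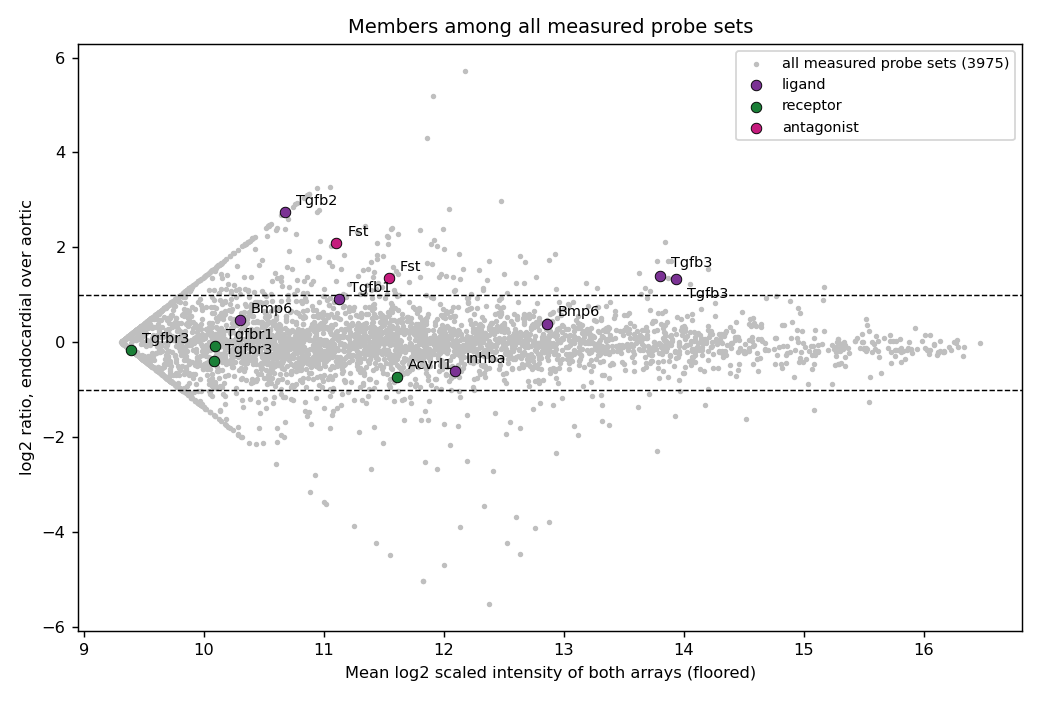
Log2 ratio, endocardial over aortic, against the mean log2 scaled intensity of both arrays (values floored at 635.4) for 3975 measured probe sets with 1 gene symbol (grey) and for the members, coloured by role. Dashed lines mark 2-fold, and the straight edges at the left are probe sets at the floor on 1 array. Tgfb2 lies on the upper edge, the Tgfb3 probe sets stand above most others of their intensity, and the points of Tgfbr1 and Tgfbr3 lie within the dim part of the cloud.

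By probe set, 5 of the 13 measured were at least 2-fold higher, where 6.82% of 3975 measured probe sets were, and 0 were at least 2-fold lower, where 4.7% were. Those 5 belonged to 3 genes and to 3 source sequences. With the floor at the control ceiling, 7 of the genes remained measured and the 3 higher ones were again Tgfb2, Tgfb3 and Fst. At that floor the shares of all 1904 measured genes past 2-fold were 3.99% in the higher and 2.36% in the lower direction. In order of log2 ratio the genes ran Tgfb2 (at least 2.74), Fst (1.72), Tgfb3 (1.36), Tgfb1 (0.91), Bmp6 (0.43), Tgfbr1 (-0.09), Tgfbr3 (-0.28), Inhba (-0.60) and Acvrl1 (-0.73). The gaps below Fst were all under 0.56, the SD expected of a difference between 2 probe-set ratios, so those steps were not resolved. The gap from Tgfb2 to Fst was at least 1.01, past that SD. With the floor at the control ceiling Tgfb2 and Fst had log2 ratios of at least 1.28 and 1.37. Both are bounds, so the order of Tgfb2 and Fst cannot be read at that floor.

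Beyond these genes, a wider pathway list of ligands, receptors, extracellular binders, SMADs and known target genes held 47 further measured genes. By role and with the members included, 2 of 9 ligands, 1 of 8 receptors and 1 of 11 extracellular binders passed 2-fold higher, and 2 of the binders passed 2-fold lower, beside 5.93% and 4.16% of all measured genes. With the floor at the control ceiling, 0 of 2 receptors passed 2-fold. Without the members, 3 genes past 2-fold were brighter on the endocardial array (6.38%) and 7 dimmer (14.9%), and the median log2 ratio of the 47 was -0.15. Of the SMADs, which carry the signal to the nucleus, Smad2 and Smad4 differed little, with log2 ratios of -0.05 and -0.07. Smad1 and Smad3 had 0.15 and 0.06. Neither exceeded the control ceiling on either array, so their ratios show neither equal nor different expression. Smad7 and Smad9 did not reach the floor.

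Among the other receptors, the activin type I receptor gene Acvr1b was the highest, with 1647.2 on the endocardial and 520.8 on the aortic array, at least 2.59-fold. Both of its values were under the control ceiling. Among extracellular binders, Dcn, whose small proteoglycan binds TGF beta, had 986.5 on the endocardial and 19147.4 on the aortic array, with 4 of 4 probe sets more than 2-fold lower. Nbl1, a BMP antagonist of the DAN family, had 1839.4 on the endocardial and 5726.3 on the aortic array, 3.11-fold lower. Both were thus far dimmer on the endocardial array, unlike Fst. Furin, a protease that cleaves the TGF beta precursor, had a log2 ratio of 0.87, and Ltbp1, which tethers latent TGF beta to the matrix, one of -0.19.

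Past 2-fold, 2 of 24 measured target genes were higher (8.33%) and 5 lower (20.8%), beside 5.93% and 4.16% of all measured genes, and the median log2 ratio was -0.24. With the floor at the control ceiling, 2 of 22 were higher and 3 lower. The list was not sorted by the direction in which the pathway moves each gene. Its counts and median are therefore no measure of pathway output, which was not tested. Postn (periostin), a matricellular protein that TGF beta induces, had 15939.7 on the endocardial and 2026.3 on the aortic array. Cdkn1a, which encodes the cell cycle inhibitor p21, had a log2 ratio of at least 1.78, with 1 of its 2 probe sets under the floor on the aortic array, and of at least 1.05 with the floor at the control ceiling. The lower genes were the collagen cross-linking enzyme Lox (-1.53), elastin, Eln (at least 2.44-fold, with the endocardial value under the floor and both values under the control ceiling), the proteoglycan Vcan (-1.19), Myc (-1.08) and the heme-degrading enzyme Hmox1 (-1.05). The 2 probe sets of Myc fell on either side of 2-fold, at -0.71 and -1.46. Collagen and contractile targets were bright and close between the arrays: Col1a1 had a log2 ratio of -0.06, Col3a1 of -0.17 and Tagln of 0.23. Acta2 had 0.71, with probe sets from 0.15 to 0.90. The BMP-responsive Id genes went both ways, with Id3 at 0.81 and Id1 and Id2 at -0.38 and -0.64. The 2 probe sets of Id3 fell on either side of 2-fold, at 0.41 and 1.22. The ratio of Id1 was within the SD among probe sets of a gene, with an endocardial value of 1356.4, under the control ceiling.

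**Figure D4:**
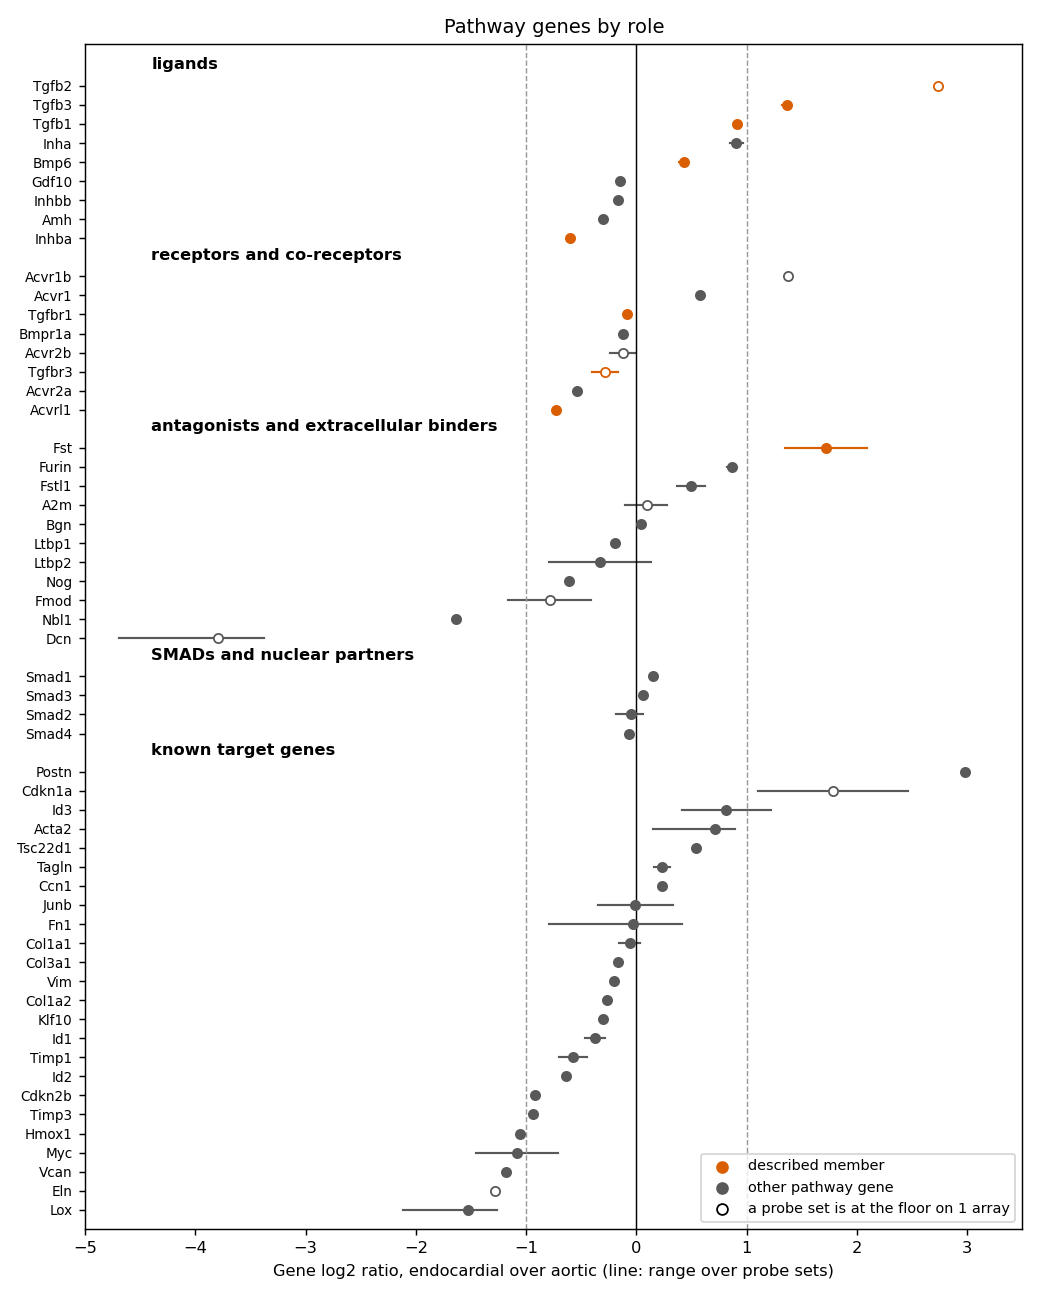
Gene log2 ratio, endocardial over aortic, of the 56 measured pathway genes by role, with the members in orange and the other genes in grey. Lines span the probe sets of a gene, open points have a probe set at the floor on 1 array, and dashed lines mark 2-fold. The 4 SMAD genes lie near 0, while the binders and target genes spread to both sides.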

How the data were processed

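Endocardial and aortic endothelial cells gave 1 array each. The authors deposited 1 linear intensity per probe set and array, which can be below 0; the summary of probes to probe sets is not stated in the labels or headers, and per the file headers the chip was the RG_U34A. Of 8799 probe sets, 59 controls were left out of gene values, and the 8740 others were scaled to a common 2% trimmed mean (factors 0.9994 for the endocardial and 1.0006 for the aortic array). Values under the median (635.4) were set to it, and probe sets under it on both arrays were dropped. Genes came from the platform annotation: 7006 probe sets with 1 symbol, 308 with several and 1426 with none, only the first kind being used; 6985 matched RefSeq (GRCr8) by gene identifier and 0 symbols changed. Source sequences of probe sets are read from their names, and pairings were not checked by sequence. Promoters are RefSeq sequences; 8 of the 10 genes had one.

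With 1 array per group no test was possible. The number of arrays limits the precision, and no interval is given. Counts were taken at 2-fold. The members and lists were chosen with earlier results of these data known. The genes named are all members, other pathway genes past 2-fold, the highest and lowest of each role list, and some markers under the floor. Of the measured markers, the 2 highest and 2 lowest of the macrophage and leukocyte list are named, and Ets1, Ace and Thbd of the endothelial list. The extremes of the other marker lists are not named as such. Further pathway genes were named after their values were seen, as examples of their role. The comparison with the largest change of a background control and the SD of a difference were also chosen after the values were seen. Alternatives were no rescaling, quantile normalization, median centring, loess (span 0.4), floors at the 75th percentile and at the highest background control, no floor with a pseudocount of 100, the brightest probe set and plain _at probe sets. Counting was tested on simulated data with changes placed only in bright probe sets, so its recovery of changes in dim probe sets was not tested. Work was done in Python 3.11.15 with numpy 2.4.6, pandas 2.3.3, statsmodels 0.14.6 and matplotlib 3.10.9.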

Additional observations from a re-analysis of the deposited data

How the results depend on the processing

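No direction of a member at least 2-fold different turned under any of the 9 alternatives, and 69 of 76 recomputed gene values moved by less than 0.39, the SD among probe sets of a gene. The floor moved the rest. Part of the agreement was fixed in advance. A raised floor cannot turn the sign of a probe set, and the scaling factors were 0.9994 and 1.0006. Tgfb1, Tgfb2, Inhba and Acvrl1 have 1 probe set, so the 2 probe-set choices return the same value. No alternative holds variation between cultures or animals. At the 75th percentile (2576.1) the log2 ratios were 0.25 for Tgfb1, 0.72 for Tgfb2 and 0.85 for Fst, so that 1 of 7 measured members (Tgfb3) and 2 of 40 pathway genes passed 2-fold higher; a higher floor compresses ratios by construction. At the highest background control Tgfb2 had 1.28. With no floor and a pseudocount of 100, Tgfb2 had 4.49, Tgfbr1 -0.84 and Tgfbr3 -1.70, and 1 member (Tgfbr3) was at least 2-fold lower; for Tgfbr1 and Tgfbr3 both arrays, and for Tgfb2 the aortic array, lay within the background controls. With plain probe sets 4 of 47 pathway genes were at least 2-fold lower, where fewer genes are measured, beside 7 of 56. Over all genes, 174 of 2935 were higher and 122 lower. The counts were 45 and 40 of 1505 at the 75th percentile, and 76 and 45 of 1904 at the highest background control. They were 429 and 343 of 4736 with no floor, and 160 and 96 of 2447 with plain probe sets. Tgfbr1 and Tgfbr3 had no value with either higher floor. No paired analysis was possible because each group had 1 array. Signal over background limits 8 of the 14 probe sets: neither array exceeded the highest background control for 5, and 1 array did for 3.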
